A study of Rattus norvegicus with 9 samples.

Results

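Cholesterol synthesis genes were described in pancreatic islets, the small organs within the pancreas that release insulin and glucagon, after a fat-rich diet. 8 genes were chosen by symbol, with earlier results of these data known: Hmgcs1, Idi1, Fdps, Fdft1, Sqle, Lss, Msmo1 and Dhcr7. A gene was taken through probe sets whose annotation gives its symbol alone, and its main probe set was the one with the highest mean signal over the arrays. 7 of the 8 had such a probe set, of 14217 genes named in this way in all. The signal of Hmgcs1 was not analysed here. All 8 encode enzymes of synthesis, and none is an uptake gene, so uptake genes are given from a separate list.

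Islets came from adult male Wistar rats that were 7 weeks old at the start and were caged singly. The cafeteria group, 5 arrays, had eaten a cafeteria diet with 66% of calories as fat for 30 days. The standard group, 4 arrays, had eaten chow with 8% of calories as fat for the same 30 days. All samples are labelled as independent biological replicates of islets picked by hand after collagenase digestion, and 1 further standard sample named in the design text was not analysed here. Groups follow the sample titles, whereas the diet field of the labels gives the opposite diet for 9 of 9 samples. Taking that field would turn the sign of each difference below. The measure is the signal of an Affymetrix Rat Genome 230 2.0 probe set, 1 linear intensity per array. Signals of different probe sets are not set against each other.

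Cholesterol is built from acetyl-CoA through mevalonate and isoprenoid units to squalene, which is closed to lanosterol and then trimmed to cholesterol. The enzymes share a regulator, SREBP2 (gene Srebf2), which SCAP carries from the endoplasmic reticulum when sterols are low and which INSIG proteins hold back when sterols are high. In beta cells cholesterol is a component of the plasma membrane and of secretory granule membranes, and both excess and shortage are known to disturb insulin secretion.

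All 7 enzymes had a higher mean signal in cafeteria than in standard islets, but by small amounts, and none passed the test over the whole array. The log2 fold of cafeteria over standard lay between 0.04 for Lss and 0.33 for Msmo1, with a median of 0.23. The isoprenoid enzymes Idi1 and Fdps and the late sterol enzymes Msmo1 and Dhcr7 had folds of 0.23 to 0.33. The squalene and lanosterol enzymes Fdft1, Sqle and Lss between them had 0.04 to 0.12. These are folds of the main probe sets. Second probe sets had 0.37 for Idi1, 0.15 for Fdft1 and -0.31 for Lss. Whether these enzymes differ from each other in fold was not tested, and their intervals overlap. In limma's test with Benjamini-Hochberg adjustment, 0 of 7 had an adjusted p under 0.05, against 0 of 18625 probe sets (0%) on the array. At an unadjusted limma p under 0.05 there were 2 of 7, Fdps and Dhcr7, against 1080 of the 18625 (5.8%). That count of 2 was 0 when any 1 of cafeteria replicates 2, 3, 4 or 5 or standard replicates 3 or 4 was left out, 1 without standard replicate 2 and 4 without cafeteria replicate 1. A positive fold was seen for 7 of 7, against 48.1% of all probe sets tested, whose median fold was -0.01; Lss and Fdft1 turned negative when single arrays were left out. The groups did not overlap for 0 of 7, against 1.76% of all. Because the 7 were chosen with earlier results of these data known, these counts are a description and not a test of a shared rise. Of the 12 other synthesis enzymes tested, 5 had a positive and 7 a negative fold. In whole islets, a change in the number of cells of a type and a change of RNA per cell cannot be told apart.

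**Figure D1:**
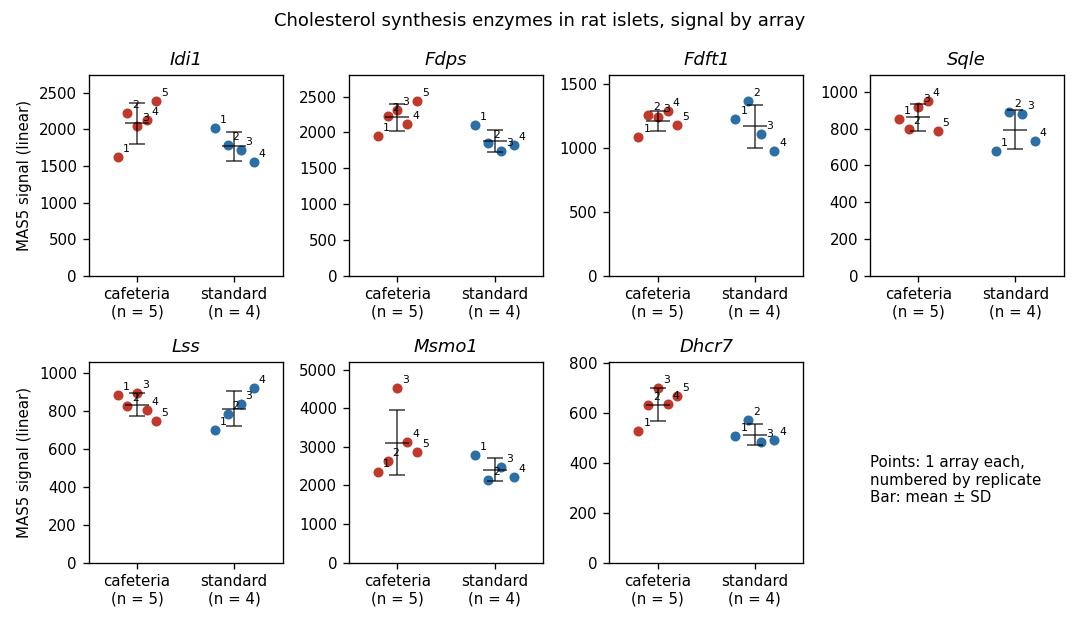
Linear MAS5 signal (vertical axis, from 0) of each of the 7 enzymes in pathway order, with cafeteria arrays (red, n = 5) and standard arrays (blue, n = 4) as points numbered by replicate. Black bars are the mean ± SD. The groups overlap in every panel, and cafeteria replicate 3 stands highest for Msmo1 at 4533.

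Idi1 encodes isopentenyl diphosphate isomerase, which interconverts the isoprenoid units that are joined in the next step. Its signal was 1629, 2221, 2049, 2129 and 2389 in cafeteria replicates 1 to 5, against 2018, 1793, 1715 and 1549.6 in standard replicates 1 to 4. In 4 of 5 cafeteria arrays it lay above the highest standard array, and cafeteria replicate 1 lay among the standard ones. Cafeteria over standard, the log2 fold was 0.23 with a standard error of 0.13 (95% interval -0.04 to 0.50), and limma's adjusted p was 0.856. The exact two-sided permutation p, over all ways of dividing the arrays into 5 and 4, was 0.103. A second Idi1 probe set had a fold of 0.37 ± 0.20 (SE; limma adjusted p = 0.848).

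Fdps encodes farnesyl diphosphate synthase, which joins isoprenoid units into the precursor of both sterols and protein prenyl groups. Its signal was 1953, 2222, 2320, 2112 and 2438 in cafeteria replicates 1 to 5, against 2106, 1855, 1736 and 1821 in standard replicates 1 to 4. Again 4 of 5 cafeteria arrays lay above all standard arrays, and 3 of 4 standard arrays lay below all cafeteria arrays. The single exchange was between cafeteria replicate 1 and standard replicate 1. The mean was 2209 ± 187 in cafeteria islets and 1879 ± 159 in standard islets (SD, n = 5 and 4). The log2 fold was 0.23 with a standard error of 0.10 (95% interval 0.01 to 0.45), with an exact permutation p of 0.0317 and a limma adjusted p of 0.839. The smallest exact p that 5 against 4 arrays allow is 0.0079.

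The 250 bases upstream of the annotated start of Fdps and Idi1 are shown because these 2 genes had the highest Pearson r of any pair of the enzymes across the arrays. They are from RefSeq on GRCr8 and run 5′ to 3′ in the direction of the gene. Capitals mark CCAAT boxes on either strand (CCAAT or ATTGG, the sequence bound by NF-Y, a partner of SREBP), and in Fdps also the letters CACACGA.
Fdps, chr2:176804817-176805066, minus strand: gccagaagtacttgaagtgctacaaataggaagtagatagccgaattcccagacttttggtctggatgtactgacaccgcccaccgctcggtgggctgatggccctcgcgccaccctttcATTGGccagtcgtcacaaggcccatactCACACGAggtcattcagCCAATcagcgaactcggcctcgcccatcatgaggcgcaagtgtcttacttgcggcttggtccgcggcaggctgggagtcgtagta
Idi1, chr17:66547525-66547774, minus strand: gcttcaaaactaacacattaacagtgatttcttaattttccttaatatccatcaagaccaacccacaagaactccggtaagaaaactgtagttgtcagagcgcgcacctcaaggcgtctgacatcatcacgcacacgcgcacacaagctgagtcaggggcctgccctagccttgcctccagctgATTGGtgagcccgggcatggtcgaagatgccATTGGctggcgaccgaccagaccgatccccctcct
Each window holds 2 CCAAT boxes. In Fdps they begin 130 and 85 bases before the start, with CACACGA between them at 102. CACACGA lies within the sterol regulatory element described for the rat farnesyl diphosphate synthase gene, and it was searched after these windows had been read. It occurs in 1.0% of 33469 rat promoter windows of the same length, and in 1 of the 6 windows given for the 8 listed genes.

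Fdft1, squalene synthase, makes the first step that belongs to sterols alone. Its signal was 1086, 1255, 1243, 1287 and 1177 in cafeteria replicates 1 to 5, against 1226, 1365, 1111 and 972 in standard replicates 1 to 4. The cafeteria arrays lay within the standard range in 5 of 5 cases. The log2 fold was 0.06 ± 0.12 (SE; 95% interval -0.20 to 0.31; limma adjusted p = 0.958; exact permutation p = 0.603). It turned to -0.03 without standard replicate 4 and was 0.13 without standard replicate 2. A second Fdft1 probe set had a fold of 0.15 ± 0.13 (SE), with a limma adjusted p of 0.870.

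Sqle, squalene epoxidase, is a rate-limiting oxidation step of the sterol branch. Its signal was 849.97, 797, 919.8, 951 and 787 in cafeteria replicates 1 to 5, against 679.96, 889.9, 879 and 733 in standard replicates 1 to 4. 2 of 5 cafeteria arrays lay above the highest standard array, and 2 of 4 standard arrays lay below the lowest cafeteria array. Sqle had a log2 fold of 0.12 ± 0.12 (SE; 95% interval -0.15 to 0.38), with a limma adjusted p of 0.898 and an exact permutation p of 0.302. It was 0.05 without standard replicate 1.

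Lss, lanosterol synthase, closes the oxidised squalene chain into the first sterol ring system. Its signal was 884, 829.5, 898, 808 and 748 in cafeteria replicates 1 to 5, against 702, 787, 835 and 923 in standard replicates 1 to 4. The standard arrays spanned the whole cafeteria range. Lss had a log2 fold of 0.04 ± 0.12 (SE; 95% interval -0.21 to 0.29; limma adjusted p = 0.966; exact permutation p = 0.651). The second Lss probe set, a dim one with a mean signal of 138, had a fold of -0.31 ± 0.42. The direction of Lss is therefore not settled, as it also turned to -0.03 without standard replicate 1.

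Msmo1, methylsterol monooxygenase, removes methyl groups from lanosterol derivatives. Its signal was 2354, 2645, 4533, 3132 and 2878 in cafeteria replicates 1 to 5, against 2787, 2152, 2487 and 2224 in standard replicates 1 to 4. 3 of 5 cafeteria arrays lay above all standard arrays, and cafeteria replicate 3 stood well above the rest. The mean was 3108 ± 846 in cafeteria islets and 2413 ± 288 in standard islets (SD, n = 5 and 4). Msmo1 had a log2 fold of 0.33 ± 0.17 (SE; 95% interval -0.02 to 0.69), with an exact permutation p of 0.111 and a limma adjusted p of 0.839. Without cafeteria replicate 3 it was 0.19.

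Dhcr7, 7-dehydrocholesterol reductase, makes cholesterol in the last step of one branch. Its signal was 526, 631, 699, 634 and 668 in cafeteria replicates 1 to 5, against 506, 571, 481 and 491 in standard replicates 1 to 4. In 4 of 5 cafeteria arrays it was above all standard arrays, and in 3 of 4 standard arrays it was below all cafeteria arrays. The mean was 632 ± 65.2 in cafeteria islets and 512 ± 40.6 in standard islets (SD, n = 5 and 4). The log2 fold was 0.29 ± 0.13 (SE; 95% interval 0.02 to 0.56). Its exact permutation p of 0.0238 was the lowest of the 7 enzymes, and these 7 exact p-values were not adjusted for their number. The limma adjusted p was 0.839.

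The windows upstream of Msmo1 and Dhcr7, the enzymes with the largest folds, are shown because they differ in CCAAT boxes, marked as before.
Msmo1, chr16:29746863-29747112, plus strand: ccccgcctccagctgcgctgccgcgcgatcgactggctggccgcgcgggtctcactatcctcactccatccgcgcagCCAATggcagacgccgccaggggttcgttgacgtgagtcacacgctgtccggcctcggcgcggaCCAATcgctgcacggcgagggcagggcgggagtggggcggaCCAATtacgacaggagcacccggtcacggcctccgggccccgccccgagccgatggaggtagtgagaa
Dhcr7, chr1:208444184-208444433, plus strand: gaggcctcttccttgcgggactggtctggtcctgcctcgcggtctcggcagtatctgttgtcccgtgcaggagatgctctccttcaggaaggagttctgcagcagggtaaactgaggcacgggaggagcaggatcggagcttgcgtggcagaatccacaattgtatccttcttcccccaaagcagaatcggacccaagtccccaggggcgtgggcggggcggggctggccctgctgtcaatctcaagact
The Msmo1 window holds 3 CCAAT boxes and the Dhcr7 window has none of these letters. A window was given for 6 of the 8 listed genes, Hmgcs1 included, and none for Fdft1 and Sqle. Of these, 5 of 6 hold a CCAAT box (all but Dhcr7), against 34.0% of all windows. A GC box (GGGCGG, either strand) is in 5 of 6 (all but Idi1), against 30.5%. Hmgcs1 counts in both, though it has no signal here. The sterol regulatory element core ACCCCAC is in 0 of 6, against 4.8%, and CACNCCA, which overlaps that core, is in 1 of 6, Msmo1, against 14.4%. The E box CACGTG is in 0 of 6, against 5.6%. These are matches of letters in a short window and say nothing of binding.

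Not every pair of the enzymes had a positive correlation over the arrays. Of the 21 pairs, 16 had a positive Pearson r over the 9 arrays, and the median r was 0.39. As deviations from the group means, 14 of 21 were positive, with a median r of 0.32. By Pearson's r the closest pair was Idi1 and Fdps, with r = 0.88 (exact permutation p = 0.0031, 0.0641 adjusted over the 21 pairs) and Spearman's rho = 0.87 (exact p = 0.0045, adjusted 0.0473). Without the 2 arrays farthest from the median Idi1 signal the r was 0.93. By Spearman's rho the closest pair was Fdps and Dhcr7, which had r = 0.84 (exact p = 0.0080, adjusted 0.0840) and rho = 0.90 (exact p = 0.0020, adjusted 0.0426), and r = 0.75 without the 2 farthest arrays. Within the diet groups, as deviations from the group means, r was 0.83 for Idi1 with Fdps and 0.64 for Fdps with Dhcr7. Lss had r = -0.56 with Idi1 (exact p adjusted 0.280), -0.52 with Fdft1 (0.315), -0.30 with Fdps (0.519), -0.05 with Dhcr7 (0.923), 0.05 with Msmo1 (0.923) and 0.36 with Sqle (0.519). No pair passed adjustment by Pearson's r, and 5 of 21 had an unadjusted exact p under 0.05. Whether these counts differ from those of other genes was not tested.

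By array, 7 of 7 enzymes were above their own 9-array mean in cafeteria replicate 3, 6 in replicate 4, 5 in replicate 2, 4 in replicate 5 and 2 in replicate 1. In standard islets the numbers were 4, 2, 2 and 1 in replicates 1 to 4. Cafeteria replicate 1 thus had fewer enzymes above their mean than standard replicate 1. The summed signal of the 7 enzymes was 9282 to 12661 in cafeteria islets, against 8714 to 10025 in standard islets.

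**Figure D2:**
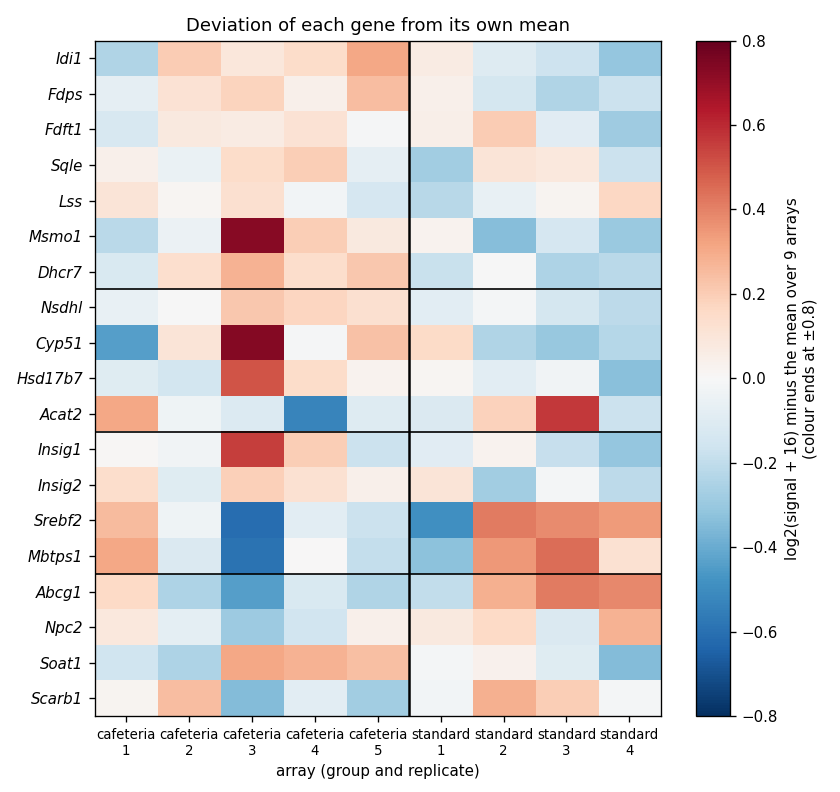
Deviation of log2(signal + 16) from the gene's own mean over 9 arrays (colour, red above and blue below) for the 7 enzymes in pathway order and, under the lines, 4 genes each of the other enzymes, the regulators and the uptake, storage and export genes. Columns are cafeteria replicates 1 to 5, then standard replicates 1 to 4. Msmo1, Cyp51, Hsd17b7 and Insig1 are highest in cafeteria replicate 3, and Srebf2 is low in cafeteria replicate 3 and standard replicate 1.

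The other enzymes of the pathway were taken from a list of 14, of which 12 were named and tested. 0 of 12 passed limma's adjusted test in either direction; 5 had a positive and 7 a negative fold, with a median of -0.02. The 4 with the smallest unadjusted p were Nsdhl, Cyp51, Hsd17b7 and Acat2. Nsdhl, which acts on the sterol ring after Msmo1, had signals of 429.9, 447, 522, 507 and 491 in cafeteria replicates 1 to 5, against 423, 443, 405 and 386 in standard replicates 1 to 4. In 4 of 5 cafeteria arrays it lay above all standard arrays, and the fold was 0.20 ± 0.12 (SE; limma adjusted p = 0.859; exact permutation p = 0.0397). Cyp51, the lanosterol demethylase, had 0.28 ± 0.19, with 0.13 without cafeteria replicate 3 and 0.42 without cafeteria replicate 1. Hsd17b7, a sterol ketone reductase, had 0.20 ± 0.16, with 0.09 without cafeteria replicate 3 and 0.12 without standard replicate 4. Acat2, which joins acetyl-CoA units at the start of the pathway, had -0.21 ± 0.19, and -0.06 without standard replicate 3 and -0.10 without cafeteria replicate 4. Of the enzymes before Idi1, Acat2, Mvk, Pmvk and Mvd had negative folds, from -0.21 to -0.01. Of those after lanosterol, Cyp51, Tm7sf2, Nsdhl, Hsd17b7 and Ebp had positive folds, from 0.10 to 0.28, while Lbr had -0.12 and Sc5d -0.02. The limma adjusted p-values of the 12 were 0.859 or higher.

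**Figure D3:**
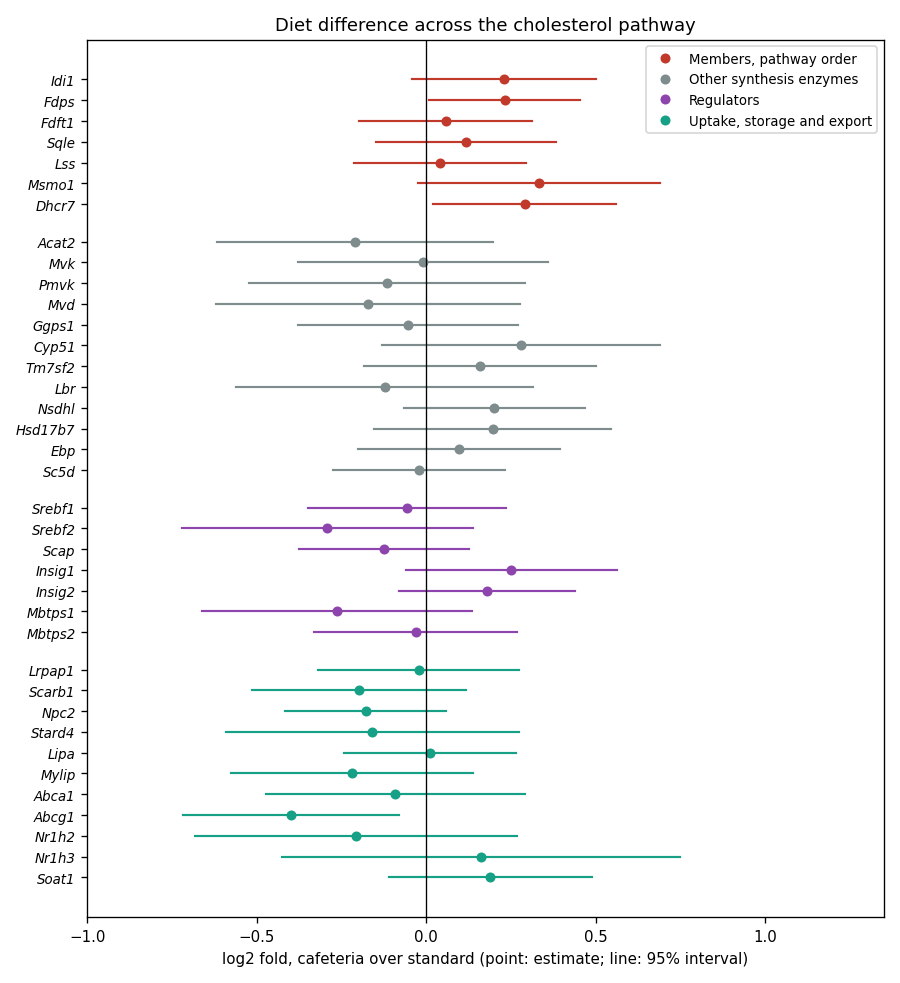
Log2 fold of cafeteria over standard islets (horizontal axis; point, estimate; line, 95% interval from limma) for the 7 enzymes in pathway order (red), 12 other synthesis enzymes (grey), 7 regulators (purple) and 11 uptake, storage and export genes (green). Intervals of Fdps and Dhcr7 lie just above 0 and that of Abcg1 lies below 0, before adjustment over the array.

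The regulators of the pathway showed no common direction. 7 of 7 were tested, 0 passed limma's adjusted test, 2 had positive and 5 negative folds, and the median was -0.06. The positive ones were Insig1, at 0.25 ± 0.14 (SE), and Insig2, at 0.18 ± 0.12. Insig1 is itself an SREBP target. Its signal was 1368, 1334, 2002, 1562 and 1209 in cafeteria replicates 1 to 5, against 1276, 1389, 1196 and 1095 in standard replicates 1 to 4, so that 2 of 5 cafeteria arrays lay above all standard arrays. Its fold was 0.14 without cafeteria replicate 3, and Insig2 had 0.12 without standard replicate 2. Srebf2, which encodes SREBP2, had a fold of -0.29 ± 0.20, with signals of 3779, 3099, 2076, 2989.9 and 2809 in cafeteria replicates 1 to 5, against 2256, 4230.3, 4131 and 4029 in standard replicates 1 to 4. 3 of 4 standard arrays lay above all cafeteria arrays, and standard replicate 1 was far below them. The Srebf2 fold was -0.51 without standard replicate 1, -0.17 without cafeteria replicate 3 and -0.04 as the mean of its probe sets. Mbtps1, the site-1 protease that releases SREBP, had -0.26 ± 0.18, and -0.15 to -0.42 with 1 array left out. Leaving out standard replicate 1 gave the -0.42, and leaving out cafeteria replicate 3 the -0.15. The limma adjusted p of these 4 was 0.859.

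Of 13 uptake, storage and export genes, 11 were named and tested, and 0 passed limma's adjusted test. 3 had positive and 8 negative folds, with a median of -0.16. Abcg1, a sterol exporter induced by oxysterols, had signals of 3037, 2284, 1999, 2487 and 2296 in cafeteria replicates 1 to 5, against 2360.4, 3314, 3624 and 3541 in standard replicates 1 to 4. 3 of 4 standard arrays lay above all cafeteria arrays, and standard replicate 1 was among the cafeteria ones. The fold was -0.40 ± 0.15 (SE; 95% interval -0.72 to -0.08), with an exact permutation p of 0.0556 and a limma adjusted p of 0.839. Npc2, which hands cholesterol out of lysosomes, had -0.18 ± 0.11, and Scarb1, a lipoprotein receptor, had -0.20 ± 0.15. Soat1, which stores cholesterol as esters, had 0.19 ± 0.14, and 0.11 without standard replicate 4. The limma adjusted p of Npc2, Scarb1 and Soat1 was 0.859 or 0.860.

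The genes whose pattern over the 9 arrays was most like the mean standardised signal of the 7 enzymes were, among 10250 genes outside the lists, Tfg, Slc31a1, Col11a1, Nceh1 and Timm17a. Pearson's r was 0.95, 0.95, 0.94, 0.94 and 0.93 in that order. Nceh1, a hydrolase of cholesterol esters, had a mean signal of 1412 in cafeteria and 1095 in standard islets, a fold of 0.36 ± 0.11 (SE; limma adjusted p = 0.839). Slc31a1, a copper transporter, had 0.47 ± 0.13 (limma adjusted p = 0.839). These are the highest of many values over the same arrays and are a description only. Of the pathway lists, Nsdhl had r = 0.96 with the 7 enzymes, Insig1 0.81, Hsd17b7 0.80, Cyp51 0.77 and Soat1 0.76. At the other end were Abcg1 at -0.80 and Npc2 at -0.77.

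The arrays differed in the ratio of 3' to 5' beta-actin signal, a measure of RNA integrity and labelling. It was 2.79 to 5.63 in cafeteria arrays (median 3.75), against 3.00 to 4.84 in standard arrays (median 3.59). Cafeteria replicate 3 had the highest ratio and 7 of 7 enzymes above their mean, and cafeteria replicate 1 had the lowest ratio and 2 of 7. Over 9 arrays the log2 ratio had a Pearson r of 0.70 with Msmo1 (exact permutation p = 0.0273, adjusted 0.160 over 37 pathway genes; rho = 0.52) and 0.67 with Fdps (exact p = 0.0540, adjusted 0.213; rho = 0.55). The r was 0.63 with Idi1, 0.54 with Dhcr7 and 0.49 with Fdft1, but -0.11 with Sqle and -0.42 with Lss, with adjusted exact p-values of 0.213 to 0.790. Without the 2 arrays farthest from the median ratio, cafeteria replicates 1 and 3, r was 0.33 with Msmo1, 0.62 with Fdps, 0.61 with Idi1, 0.26 with Dhcr7, 0.41 with Fdft1, -0.47 with Sqle and -0.92 with Lss. For the mean log2 deviation of the 7 enzymes r was 0.63, 0.29 without those arrays and 0.82 within the diet groups, as deviations from the group means. Within the groups r was 0.87 with Fdps, 0.77 with Msmo1, 0.72 with Dhcr7, 0.69 with Idi1 and 0.48 with Fdft1. It was -0.17 with Sqle and -0.45 with Lss. Cyp51 had r = 0.89 (exact p = 0.0011, adjusted 0.0402; rho = 0.80, adjusted 0.289), and 0.73 without those arrays. Srebf2 had r = -0.82 (exact p = 0.0086, adjusted 0.106; rho = -0.60), and -0.71 without them. Mbtps1 had r = -0.82 (exact p = 0.0081, adjusted 0.106), and -0.85 within the groups. Abcg1 had r = -0.73 (exact p = 0.0298, adjusted 0.160), and -0.89 within the groups. Of the 37 genes, 8 had an unadjusted exact p under 0.05 by Pearson's r and 1, Cyp51, an adjusted one. With the log2 ratio as a covariate, chosen after seeing the data, the folds were 0.20 for Idi1, 0.21 for Fdps, 0.29 for Msmo1 and 0.27 for Dhcr7, and -0.23 for Srebf2.

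**Figure D4:**
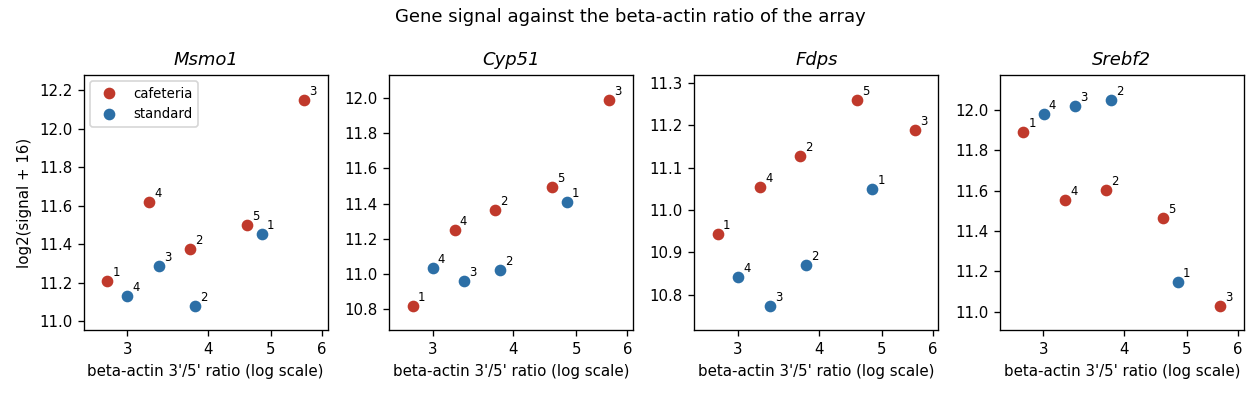
Log2(signal + 16) of Msmo1, Cyp51, Fdps and Srebf2 (vertical axes) against the beta-actin 3'/5' ratio of the same array (horizontal axis, log scale), with cafeteria arrays in red and standard arrays in blue, numbered by replicate. Msmo1 and Cyp51 are highest in cafeteria replicate 3, which has the highest ratio at 5.63, and Srebf2 is lowest there.

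Islet markers matched the label: the summed signal of Ins1, Ins2, Iapp, Gcg, Sst and Ppy was 174691 to 263660 in cafeteria arrays and 171354 to 250625 in standard arrays. Of the 16 acinar genes named, 15 were tested and 14 had positive folds; their summed signal was 4037 to 13098 in cafeteria arrays, against 4851 to 11218 in standard arrays. Of 18 macrophage genes, 13 were tested and 13 had negative folds, against 9672 of all 18625 probe sets tested. Their sum was 5728 to 9435 in cafeteria arrays, against 9588 to 16744 in standard arrays, without overlap. Cd74, with means of 2168 and 4412, weighs heavily in that sum. It was the 1 gene of the 13 whose groups did not overlap, against 1.76% of all probe sets. Cd74, RT1-Da, RT1-Db1 and RT1-Ba had folds of -0.95 to -0.77. Lyz2 had -0.60, C1qc -0.59, Csf1r -0.30, Cd14 -0.21, Tyrobp -0.20 and Fcer1g -0.19. The smallest were C1qb at -0.14, C1qa at -0.10 and Cd68 at -0.004. Immediate early genes, which rise with handling, summed to 17968.5 to 39145 in cafeteria arrays, against 22698 to 66915 in standard arrays. Of the 13 tested, 12 had negative folds, with a median of -0.56. The sum of 10 lymphocyte genes was 685 to 885 in cafeteria arrays, against 858 to 4687 in standard arrays, and 4 of the 4 tested had negative folds. The sum of 9 endothelial genes was 14698 to 17131 in cafeteria arrays, against 15548 to 17818 in standard arrays, with 8 of 9 folds negative. No marker signal was listed at 0. Over the 9 arrays, the mean log2 deviation of the 7 enzymes had a Pearson r of 0.35 with the log2 sum of the acinar genes (Spearman's rho 0.40). The r was -0.46 with the macrophage genes (rho -0.47), -0.15 with the immediate early genes (rho -0.15) and -0.01 with the islet genes (rho 0.27). Within the diet groups r was 0.19 with acinar, 0.22 with macrophage, 0.30 with immediate early and -0.12 with islet genes. Without the 2 arrays farthest from the median of each sum, r was 0.49, -0.78, -0.15 and 0.39 in that order. These are given as a description. The part of the lymphocyte and endothelial genes was not tested.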

How the data were processed

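The deposited table holds 1 linear intensity per probe set and array. The submitters' processing notes name MAS5 as the authors' tool, with no version or settings. Trimming 2% from each end gave every array a mean of 500, so no further scaling was applied. Array medians lay between 147.0 and 166.6. Arrays carry no read depth, and precision is limited by how many arrays there are. Of 31099 probe sets, 57 controls were left out. Names came from the platform annotation, in which 20826 of the remaining 31042 have 1 symbol.

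After log2(signal + 16), limma 3.58.1 under R 4.3.3 fitted 1 term, diet, with an intensity trend. Benjamini-Hochberg adjustment ran over the 18625 probe sets at or above the 40th percentile of mean log2 signal. Folds are on that scale, which understates changes of dim genes. The fit was tested on simulated data. Exact permutation tests are two-sided. Python 3.11.15 was used for correlations, motifs and figures.

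The members and lists were chosen with earlier results of these data known. Of the other pathway genes, values are given for the 4 of each list with the smallest unadjusted p; Mvk, Pmvk, Mvd, Tm7sf2, Ebp, Lbr and Sc5d are given as ranges or single folds. Alternatives were other pseudocounts, scalings and filters, each array left out, a replicate block and the mean of all probe sets of a gene. Leaving out 3 doubted arrays and the beta-actin covariate were added after the data were seen.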

Additional observations from a re-analysis of the deposited data

Results flagged for a closer look

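Within the standard group, standard replicate 1 stood apart from the other 3 arrays for 2 genes of the pathway, by Dixon's test of the gap over the range on the log2(signal + 16) scale. Its Srebf2 signal of 2256 lay far below the others (gap 0.92 of the log2 range), and its Cyp51 signal of 2706 lay above them (gap 0.84 of the log2 range). Over 37 genes in 2 groups 74 such checks were made, of which chance flags about 1 in 20. None of the 7 enzymes was flagged in either group.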

How the results depend on the processing

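0 of the 7 enzymes passed in each of 19 alternatives, and the folds of Idi1, Fdps, Sqle, Msmo1 and Dhcr7 stayed positive in each of them. Lss turned to -0.13 with the mean of all its probe sets and to -0.062 without 3 doubted arrays, and lay between -0.025 (without standard replicate 1) and 0.104 with 1 array left out. Fdft1 lay between -0.026 (without standard replicate 4) and 0.135. The causes were not tested. The 3 doubted arrays, standard replicates 1 and 3 and cafeteria replicate 3, had high immediate early, lymphocyte or beta-actin values. The median fold of the enzymes was 0.168 to 0.286 with 1 array left out. That of the other synthesis enzymes was -0.042 to 0.037 with 1 array left out, 0.097 with the mean of all probe sets of a gene and 0.069 without 3 doubted arrays. As means of all their probe sets Hsd17b7 had 0.38, Cyp51 0.18, Soat1 0.08 and Scarb1 -0.31. Over all probe sets the count called was 0, and 0 to 2 with 1 array left out; the 2 came without standard replicate 2. The number of enzymes with an unadjusted limma p under 0.05 was 2 and ranged from 0 to 4, with 4 under median normalisation, 1 under quantile normalisation and 0 with the replicate block. Same-numbered arrays did not deviate together (correlations -0.38, -0.05, -0.12 and 0.03 for numbers 1 to 4). Of 4 cafeteria arrays, 0 correlated best with the standard array of the same number. These values gave no sign of pairing by number, but 4 correlations are too few to settle it. With the replicate number as a block, on the arrays whose number occurs in both groups, the number of enzymes called was 0, their median fold 0.18 and that of the other synthesis enzymes 0.018. Folds are limited by 9 arrays, and the dim second Lss probe set has a standard error of 0.42.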
